A study of Mus musculus and Macaca nemestrina with 20 samples.

Results

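The sensory neuropeptides described here are the precursor genes Tac1, Calca, Calcb, Adcyap1, Vip, Gal, Npy, Nts, Sst and Vgf, 10 of the 29766 genes of the mouse tables and, under the same symbols in capitals, 10 of the 35194 genes of the monkey tables. They were chosen by name, as precursors known from dorsal root ganglia (DRG), by a rule that uses no measured value, although earlier results of these data were known. Bulk RNA sequencing of DRG, the ganglia that hold the cell bodies of sensory neurons, was carried out in a series whose title concerns chronic itch. In mice, 7 libraries with the genotype label ADAM17 KO were compared with 7 labelled flox. ADAM17 is a membrane protease that sheds ligands and receptors from the cell surface. The labels do not give the Cre line, the tissue of the deletion, the strain or the age, so knockout and flox are used as labelled. Batch 1 held knockout libraries 1 to 4 and flox libraries 1 to 3, and batch 2 held knockout libraries 5 to 7 and flox libraries 4 to 7. In pig-tailed monkeys (Macaca nemestrina), 3 libraries of DRG of skin treated with SADBE (squaric acid dibutyl ester, a contact sensitiser) were compared with 3 of vehicle-treated skin. Nothing in the labels says which libraries came from separate animals, and the p-values therefore reflect only how far libraries differ, part of which may be technical.

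Neuropeptides are made as long precursors, cut by convertases in the secretory pathway, stored in dense-core granules and released on firing from both ends of the sensory neuron. Substance P and calcitonin gene-related peptide (CGRP) are the peptides of peptidergic nociceptors, where they act on spinal neurons centrally and on vessels and immune cells in the skin. Galanin, neuropeptide Y, VIP and PACAP are best known in DRG for their rise after nerve injury, and somatostatin marks a class of itch-sensing neurons.

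Both CGRP genes lie close together on mouse chromosome 7 and are the only pair of members that share sequence. Calca (chr7:114631478-114636357, minus strand, GRCm38) yields calcitonin or alpha-CGRP by alternative splicing, and Calcb (chr7:114718643-114723365, plus strand) yields beta-CGRP. Of the 1678 distinct words of 31 bases in the Calca transcripts of the GENCODE M21 annotation, 33 (1.97%) also occur in Calcb, where they are 2.62% of 1260. Their coding sequences are most alike in a 120-base window, shown because it holds the stretch in which reads of one gene can be mistaken for the other. Calca's window runs from base 227 to 346 of the 384-base coding sequence (chr7:114632481-114634468, across an intron), and Calcb's from base 230 to 349 of 390 (chr7:114720214-114722093, across an intron). Capitals mark the 5 bases that differ, and 95.8% are identical.
Calca: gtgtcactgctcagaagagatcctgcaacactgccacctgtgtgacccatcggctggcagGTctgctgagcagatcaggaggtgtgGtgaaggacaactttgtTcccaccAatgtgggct
Calcb: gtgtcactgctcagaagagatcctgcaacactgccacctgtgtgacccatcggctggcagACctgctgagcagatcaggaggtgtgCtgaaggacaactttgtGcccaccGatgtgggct
The longest identical run in this window was 60 bases. For 7 of the other members no 31-base word was shared with any other annotated gene, and for Vip 14 of 3380 words (0.414%) were, so the values of these genes rest almost wholly on reads of their own.

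Promoters were read from a RefSeq table (GRCm38.p6) that covers 250 bases before to 50 after each start and held 8 of the 10 members, all but Calcb and Vgf. Cyclic AMP response elements are textbook features of several neuropeptide genes, so TGACGTCA (the full element), TGACG (its core, contained in the full one), TGANTCA (AP-1) and TTCNNNGAA (STAT) were searched on both strands. The full element was found in the promoter of 1 of 8 members, Sst, and in 1.79% of all 32851 promoters. The core was found in 7 of 8 members, all but Npy, and in 20.8% of all promoters. AP-1 letters were found in 1 of 8 members, Nts, and in 7.81% of all promoters, and STAT letters in 0 of 8 and 8.30%. The member counts are of genes while the shares are of promoters, and Adcyap1 had more than 1 promoter. The stretches around the matches are shown for Tac1, Calca and Nts, which differed between the genotypes, and for Vip and Sst, which did not pass the test. Tac1 had core matches at positions -197 and -43 from the start, and only the one at -43 is shown. Capitals mark the matches, reading CGTCA where the core lies on the opposite strand.
Tac1 (chr6:7554998-7555042, plus strand): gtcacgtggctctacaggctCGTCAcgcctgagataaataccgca
Calca (chr7:114636398-114636442, minus strand): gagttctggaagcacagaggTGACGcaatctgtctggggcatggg
Nts (chr10:102490560-102490645, minus strand): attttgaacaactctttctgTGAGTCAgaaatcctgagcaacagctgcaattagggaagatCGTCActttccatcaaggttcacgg
Vip (chr10:5639119-5639163, plus strand): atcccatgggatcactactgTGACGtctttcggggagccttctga
Sst (chr16:23890865-23890912, minus strand): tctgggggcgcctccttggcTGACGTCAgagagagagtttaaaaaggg
A match describes letters in a window and does not show that a factor binds there.

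Depth, in estimated counts (M, mega), was 12.1 to 14.7 M for knockout against 46.9 to 52.1 M for flox in batch 1, 27.9 to 36.0 M in batch 2 and 9.02 to 27.1 M in monkeys. Markers of sympathetic neurons stood apart in knockout library 2, with Dbh at 12.7 CPM (counts scaled to a common library size) against at most 0.476 in the other 13 mouse libraries and Slc6a2 at 12.3 against at most 1.46. Knockout library 4 held erythroid markers at a summed 31810 CPM, against 452 to 8180 CPM in the other 13. Its skeletal muscle markers summed to 2387 CPM, above all other mouse libraries but flox library 6 (3971 CPM). SADBE libraries 2 and 3 resembled each other far more than other monkey pairs of the same group, with a chi-square per gene of 26.5 against 269.5 to 507.3. Levels within a gene are given as CPM on library sizes scaled by the trimmed mean of M-values, and levels between genes as TPM, which is per length.

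Of the 10 precursors, 5 rose in knockout DRG and 0 fell: Tac1, Calca, Npy, Nts and Vgf. Over both batches Vgf and Nts rose more than 3-fold, Npy by 2.46-fold and Tac1 and Calca by about 1.7-fold. The Nts value pools 1.74-fold in batch 1, which was not called, and 6.32-fold in batch 2. All 10 members were among the 15654 genes tested with edgeR's quasi-likelihood test, batch being a term of the model, of which 15.5% were called at an adjusted p under 0.05, 7.97% higher and 7.51% lower. The median log2 fold change of the 10 members was 0.79, against -0.01 over all genes tested. Within a batch, the 2 genotypes did not overlap in either batch for Tac1, Calca, Nts and Vgf, each higher in knockout, as was the case for 3.24% of all genes tested (2.26% were lower in both). Without overlap in batch 1 were 7.34% of genes higher and 6.61% lower, and in batch 2 13.2% higher and 13.7% lower. In bulk tissue, fewer cells of a type and less RNA per cell cannot be told apart.

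**Figure D1:**
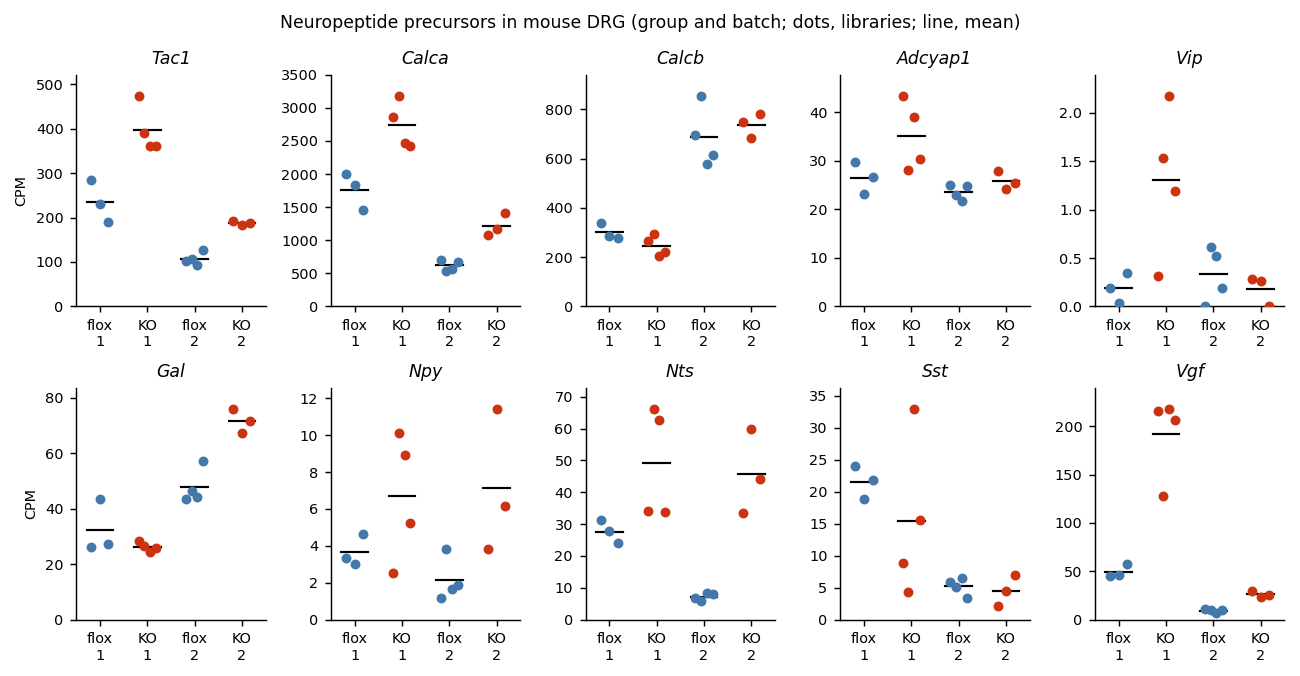
Level of each precursor in the 14 mouse libraries, in CPM (linear axes from 0), by genotype and batch (flox 1 is flox in batch 1, and so on); dots are libraries and lines are group means. Knockout libraries lie above all flox libraries of their batch for Tac1, Calca, Nts and Vgf, while Calcb and Sst overlap in both batches.

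Tac1 (chr6:7554879-7565834, plus strand) encodes substance P and neurokinin A. In batch 1 it stood at 474, 391, 361 and 360 CPM in knockout libraries 1 to 4 and at 285, 231 and 189 CPM in flox libraries 1 to 3. In batch 2 it stood at 191, 183 and 188 CPM in knockout libraries 5 to 7 and at 103, 106, 93.7 and 127 CPM in flox libraries 4 to 7. No flox library reached the lowest knockout library of its batch, and both genotypes were lower in batch 2. The log2 fold change was 0.78 ± 0.11 (SE, n = 7 against 7; 1.71-fold), with an adjusted p of 0.000223 in edgeR. Within batches it was 0.73 ± 0.17 and 0.80 ± 0.13, close in size, although the adjusted p of edgeR was 0.0722 in batch 1 and 0.00425 in batch 2. Without knockout library 4 the batch 1 value passed (0.0390), and without flox library 1 as well (0.0359). The interaction of batch and genotype was 0.05 ± 0.22.

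Calca stood at 2864, 3185, 2468 and 2419 CPM in knockout and 2001, 1839 and 1450 CPM in flox libraries of batch 1. In batch 2 its levels were 1086, 1172 and 1407 CPM in knockout and 708, 540, 564 and 677 CPM in flox libraries. The groups did not overlap in either batch, as with Tac1. Calca rose by 0.80 ± 0.12 on the log2 scale (SE; 1.75-fold; edgeR adjusted p = 0.000338), with 0.60 ± 0.17 in batch 1 (adjusted p = 0.112) and 0.98 ± 0.14 in batch 2 (adjusted p = 0.00247). Gene counts sum all Calca transcripts and do not separate calcitonin from CGRP messages.

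Calcb, the second CGRP gene, did not follow Calca. It stood at 264, 294, 206 and 221 CPM in knockout against 337, 288 and 278 CPM in flox libraries of batch 1. Its batch 2 levels were 749, 684 and 780 CPM in knockout against 698, 856, 578 and 615 CPM in flox libraries. The genotypes overlapped in both batches. The log2 fold change was -0.09 ± 0.12 (edgeR adjusted p = 0.634), with a 95% interval of -0.33 to 0.14. The 95% interval of Calca's, 0.57 to 1.03, lies above it.

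The ratio of Calca to Calcb within a library does not depend on scaling between libraries. On TPM, knockout libraries of batch 1 had ratios of 10.4, 10.4, 11.5 and 10.5, and the flox ones 5.67, 6.12 and 4.98. Those of batch 2 were 1.40, 1.65 and 1.73 for knockout, with 0.972, 0.605, 0.934 and 1.06 for flox. Calca thus exceeded Calcb in all libraries of batch 1, whereas in batch 2 both genes were near parity in flox libraries. On the log2 scale of estimated counts the knockout ratio was higher by 0.90 ± 0.12 (SE; 1.86-fold), by 0.94 in batch 1 and 0.86 in batch 2. An exact two-sided permutation test of genotype within batches gave p = 0.000816, the minimum for 1225 splits; this ratio was chosen for testing after its values had been seen. Leaving out any 1 of the 14 libraries kept the difference between 0.81 and 0.94. The difference between batches was larger than that between genotypes, and its source was not tested.

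**Figure D2:**
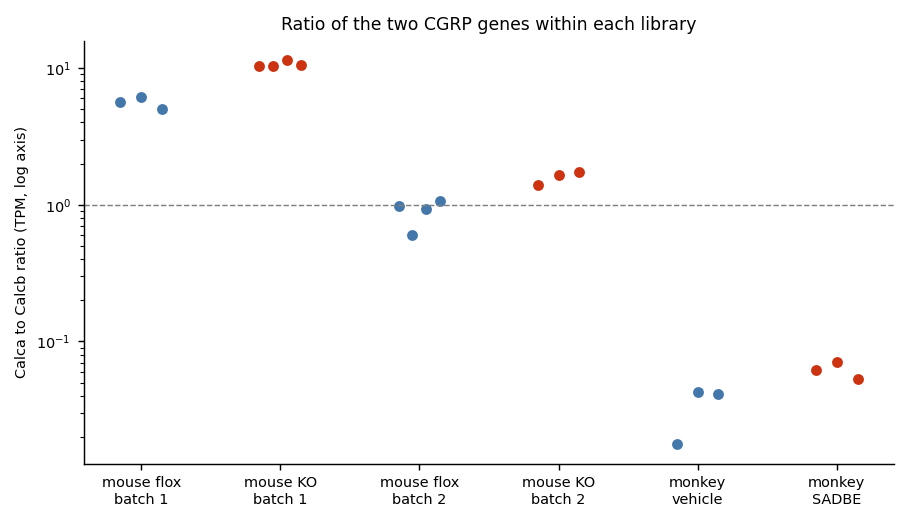
Ratio of Calca to Calcb TPM in each library (log axis; the dashed line marks equal levels), for mouse genotypes by batch and for monkey groups; dots are libraries. Knockout libraries lie at 10.4 to 11.5 in batch 1 and 1.40 to 1.73 in batch 2, above the flox libraries of the same batch, and all monkey libraries lie below 0.1.

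The related peptides PACAP (Adcyap1) and VIP (Vip) did not pass the test. Adcyap1 ranged from 28.1 to 43.5 CPM in knockout and from 23.1 to 29.8 CPM in flox libraries of batch 1, and from 24.1 to 27.9 against 21.7 to 25.1 CPM in batch 2. These ranges overlapped in both batches, and its log2 fold change was 0.27 ± 0.12 (edgeR adjusted p = 0.144, 95% interval 0.03 to 0.50). Vip was near the limit of detection, with 0 to 33 counts per library. In batch 1 it had 5, 24, 33 and 15 counts in knockout and 11, 2 and 19 counts in the more deeply sequenced flox libraries, and the log2 fold change there was 2.72 ± 0.84 (edgeR adjusted p = 0.145). In batch 2, where it had 7, 7 and 0 counts in knockout and 0, 21, 16 and 6 counts in flox libraries, it did not pass the filter on low counts; with no filter its value there was -0.83 (edgeR adjusted p = 0.758). DESeq2 called Vip in batch 1 (2.78, adjusted p = 0.0289) and edgeR did not. Over both batches the value was 1.08 ± 1.00 (edgeR adjusted p = 0.496), and its pooled interval ran from -0.88 to 3.04.

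Galanin (Gal), an injury-induced peptide, was called in batch 2 only, and the difference between the batches did not pass in edgeR. In batch 1 it stood at 28.3, 26.6, 24.4 and 25.7 CPM in knockout and 26.3, 43.4 and 27.4 CPM in flox libraries. In batch 2 the values were 76.0, 67.4 and 71.5 CPM in knockout and 43.6, 46.3, 44.3 and 57.4 CPM in flox libraries. The genotypes overlapped in batch 1, and every knockout library was higher in batch 2, where 13.2% of all genes tested did the same. The log2 fold change was -0.34 ± 0.19 in batch 1 (edgeR adjusted p = 0.429), or -0.05 without flox library 2, and 0.59 ± 0.14 in batch 2 (adjusted p = 0.0215). The latter was lost without knockout library 7 (0.0642) or flox library 4 (0.0551), and with library sizes set by sensory neuron markers (0.47, 0.0808). The interaction, 0.88 ± 0.24, did not pass in edgeR (adjusted p = 0.0862) and passed in DESeq2 (0.0293). Pooled, Gal did not pass (0.14 ± 0.16, adjusted p = 0.579).

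Npy (chr6:49822710-49829507, plus strand), which encodes neuropeptide Y, was low in flox DRG and rose by 1.30 ± 0.36 on the log2 scale (SE; 2.46-fold; edgeR adjusted p = 0.0234). It stood at 2.51, 10.1, 8.91 and 5.24 CPM in knockout and 3.34, 3.00 and 4.65 CPM in flox libraries of batch 1, and at 3.80, 11.4 and 6.16 against 1.18, 3.85, 1.64 and 1.90 CPM in batch 2. Knockout library 1 lay below all flox libraries of its batch and knockout library 5 within the flox range of its batch, so the groups overlapped in both. The call was lost without knockout library 6 (adjusted p = 0.0633), flox library 6 (0.0504) or flox library 7 (0.0541), and with library sizes set by sensory neuron markers (0.0670). In batch 2 alone (1.73 ± 0.48, adjusted p = 0.0405) it was lost without any 1 of knockout libraries 6 (0.177) and 7 (0.0807) and flox libraries 4 (0.0907), 6 (0.0816) and 7 (0.105). Npy is also a peptide of sympathetic neurons: without knockout library 2, which held the sympathetic markers above, the log2 fold change was 1.21 and the adjusted p 0.0489. Of the 4 sympathetic or autonomic markers that could be tested 1 was called over both batches, Slc18a1, higher in knockout. Th, which touch neurons of the DRG also express, had a value of -1.07 ± 0.40 (edgeR adjusted p = 0.0841) and was called lower in batch 2 alone (-1.92 ± 0.31, 0.00471). The part of such cells in the Npy result was not tested.

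Nts (chr10:102481756-102490486, minus strand) encodes neurotensin and neuromedin N. Its levels were 34.1, 66.2, 62.7 and 33.7 CPM in knockout and 31.1, 27.8 and 24.0 CPM in flox libraries of batch 1. In batch 2 they were 33.3, 60.0 and 44.2 CPM in knockout and 6.75, 5.71, 8.48 and 8.15 CPM in flox libraries. Knockout levels were alike in the batches, and the flox level was lower in batch 2. The log2 fold change was 0.80 ± 0.27 in batch 1 (edgeR adjusted p = 0.169) and 2.66 ± 0.23 in batch 2 (6.32-fold; adjusted p = 0.000200). Nts was the 1 member of 10 with a called interaction of batch and genotype, 1.82 ± 0.36 (edgeR adjusted p = 0.0264), against 1.03% of all genes tested (0.658% higher, 0.371% lower). That call was lost in edgeR without any 1 of knockout libraries 1, 6 and 7 or flox libraries 1, 2, 4, 5 and 7, with adjusted p-values of 0.0525 to 0.0854 and values of 1.58 to 1.90.

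Somatostatin (Sst), a peptide of itch-sensing neurons, had the widest spread in knockout libraries of batch 1. Its levels there were 8.79, 4.30, 32.9 and 15.6 CPM, and those of flox libraries 24.0, 18.8 and 21.8 CPM. In batch 2 they were 2.06, 4.45 and 7.05 CPM in knockout and 5.84, 5.06, 6.48 and 3.42 CPM in flox libraries. The groups overlapped in both batches, and the log2 fold change of -0.35 ± 0.36 did not pass (edgeR adjusted p = 0.545, 95% interval -1.05 to 0.35). The summed level of 8 spinal cord markers in knockout libraries 1 to 4 was 40.6, 54.8, 256 and 178 CPM, higher in the same libraries 3 and 4 in which Sst was higher. In flox libraries 1 to 3 it was 186, 64.6 and 121 CPM, with the highest sum and the highest Sst both in library 1. In batch 2 the sums were 127, 102 and 132 CPM in knockout and 56.4, 71.4, 134 and 47.4 CPM in flox libraries. Highest sum and highest Sst again fell in 1 library of each genotype, but knockout library 5, lowest in Sst, did not have the lowest sum. Of 6 of these markers that could be tested 0 were called over both batches in edgeR (1, Gad1, had an unadjusted p under 0.05). Within batch 2 Gad1 was called higher in knockout (2.02 ± 0.55, edgeR adjusted p = 0.0367). The part of the spinal cord markers in the Sst values was not tested.

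Vgf (chr5:137026392-137033351, plus strand) encodes a granule protein, induced by neurotrophins, that is cut into several peptides. It stood at 216, 128, 218 and 206 CPM in knockout and 45.5, 46.4 and 57.3 CPM in flox libraries of batch 1. Its batch 2 levels were 29.6, 23.3 and 25.5 CPM in knockout and 10.8, 9.92, 6.55 and 9.55 CPM in flox libraries. The lowest knockout library of each batch lay well above the highest flox library of that batch. Vgf rose by 1.73 ± 0.15 (SE; 3.32-fold; edgeR adjusted p = 2.85e-06), by 1.91 ± 0.22 in batch 1 (adjusted p = 0.00430) and by 1.51 ± 0.21 in batch 2 (adjusted p = 0.00201).

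In batch 1 alone 1 of 10 members was called, Vgf, where 1.8% of genes were called (1.12% higher, 0.687% lower); with library sizes set by sensory neuron markers it was not (edgeR adjusted p = 0.0637), and DESeq2 called 5 (Tac1, Calca, Vip, Nts and Vgf). In batch 2, 6 of 9 members tested were called, all higher (Tac1, Calca, Gal, Npy, Nts and Vgf), where 13.2% of genes were called (7.22% higher, 5.99% lower). The batches also differed in depth, so the larger number in batch 2 does not show a larger effect there.

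**Figure D3:**
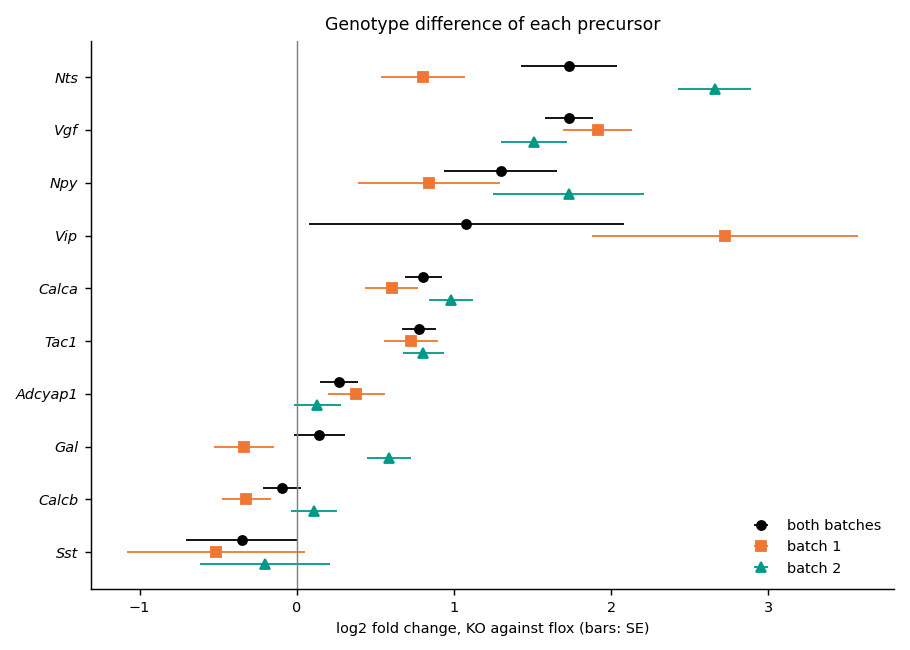
Log2 fold change of each precursor, knockout against flox, over both batches (black circles) and within batch 1 (orange squares) and batch 2 (green triangles), with bars of 1 standard error. Nts stands at 0.80 in batch 1 and 2.66 in batch 2, Gal at -0.34 and 0.59, and Tac1 at 0.73 and 0.80; Vip did not pass the filter on low counts in batch 2.

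By TPM, Calca led in both genotypes of batch 1 and in knockout of batch 2. In flox libraries of batch 2 Calcb (869 to 1378 TPM) and Calca (812 to 1013 TPM) overlapped. Tac1 and Calcb overlapped in batch 1 in both genotypes, and Vip was last in each group. Vgf changed rank most between the genotypes of batch 1: in knockout it held rank 4 at 88.4 ± 22.1 TPM (SD, n = 4), and in flox rank 7 at 20.5 ± 4.95 TPM (SD, n = 3), by mean TPM. Its range overlapped that of Nts in both genotypes, that of Sst in knockout and that of Adcyap1 in flox.

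Over the 14 mouse libraries, with batch means removed from log2(CPM + 1), Tac1 and Calca had a Pearson r of 0.93, and 0.61 after the mean of each genotype was removed as well. Nts and Vgf had 0.67, and -0.64 within genotypes, so within a genotype and batch, libraries higher in Nts tended to be lower in Vgf. Among 12857 tested genes (mean TPM of 1 or more), the most like Tac1 were Dnajc12, Ndp and Tmt1a3 (r of 0.97, 0.97 and 0.96), and the most like Calca were Tmt1a3, Alkal2 and Cmpk1 (0.95 each). For Vgf they were Tuba1c, Socs2 and Or8b53 (0.98, 0.97 and 0.97), for Nts Myef2, Vapa and Serpina3m (0.96 each), and for Npy Nckap1l, Aldh1b1 and Zfp942 (0.87, 0.85 and 0.83). These values are descriptions over the same libraries, and they carry the genotype difference where the genotype means were left in. However, the 3 genes most like Npy were not called between the genotypes (edgeR adjusted p = 0.219, 0.0543 and 0.160). With the genotype means removed as well, their r with Npy was 0.83, 0.67 and 0.75.

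The machinery that makes and stores peptides moved in part. Of 18 processing and granule genes tested 5 rose and 0 fell in knockout DRG, beside 7.97% called higher and 7.51% lower among all genes. Their median log2 fold change was 0.22, against -0.01 over all genes. The 5 were the convertases Pcsk1 (0.84 ± 0.19, edgeR adjusted p = 0.00780) and Pcsk2 (0.82 ± 0.14, 0.00118), the carboxypeptidase Cpd (0.72 ± 0.10, 0.000328) and the granule proteins Scg2 (0.64 ± 0.11, 0.00153) and Scg3 (0.76 ± 0.13, 0.00164). In batch 1 alone 0 of the 18 were called, where 1.8% of all genes were. There the 5 had values of 0.47 (Scg2) to 0.91 (Pcsk1), with edgeR adjusted p of 0.0768 to 0.153. All 5 were called higher in batch 2 alone, where 7.22% of all genes were. Pcsk2 had 122 to 156 CPM (knockout) against 64.3 to 105 CPM (flox) in batch 1, and at 192 to 248 against 84.7 to 145 CPM in batch 2. Cpe and Pam, which trim and amidate peptides and were chosen after their values had been seen, had values of 0.01 ± 0.10 and -0.12 ± 0.10 and did not pass.

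Receptors of these peptides were called in both directions, 3 higher and 1 lower of 16 tested, with a median of -0.17, beside 15.5% called among all genes. Tacr1, the substance P receptor, rose by 3.00 ± 0.51 (edgeR adjusted p = 0.00114) from a low level, at 2.79 to 12.8 CPM (knockout) against 0.254 to 1.28 CPM (flox) in batch 1 and 1.35 to 4.93 against 0.220 to 0.800 CPM in batch 2. The neuropeptide Y receptors Npy1r (2.48 ± 0.24, adjusted p = 6.17e-06) and Npy2r (1.24 ± 0.20, adjusted p = 0.000808) rose together with their ligand. Npy1r stood at 29.2 to 53.9 CPM in knockout against 4.30 to 9.98 CPM in flox libraries of batch 1, without overlap. Ramp3, a partner of receptors of the CGRP family, fell by 1.38 ± 0.34 (adjusted p = 0.0132), while Calcrl and Ramp1, which form the CGRP receptor, had values of 0.51 ± 0.22 and -0.42 ± 0.30 and did not pass over both batches; these were also chosen after their values had been seen. Calcrl alone was called within batch 2 (0.96 ± 0.28, adjusted p = 0.0486), and its interaction did not pass (0.88 ± 0.39, adjusted p = 0.315).

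Among 18 other peptide precursors tested, 3 rose and 1 fell, with a median of 0.53, again beside 15.5% over all genes. Cartpt, the precursor of CART peptides, rose by 3.47 ± 0.33 (edgeR adjusted p = 9.34e-06), at 108 to 332 CPM in knockout against 16.2 to 39.2 CPM in flox libraries of batch 1 and at 62.8 to 189 against 7.65 to 11.8 CPM in batch 2. Nppb (1.66 ± 0.19, adjusted p = 4.61e-05) and Ucn2 (1.90 ± 0.47, adjusted p = 0.0135) rose, and Npb fell by 1.68 ± 0.54 (adjusted p = 0.0443). Of 11 peptide-degrading enzymes 0 rose and 1 fell, a smaller share than over all genes: Anpep (-1.23 ± 0.30, adjusted p = 0.0120). Of 12 axon injury genes 9 rose, Sprr1a (6.04) and Sox11 (2.92) by the most on the log2 scale, and 1 fell, Csf1, with a median of 0.84, and of 16 transcription factor and pathway genes linked to the promoter letters 6 rose (Atf3, Fosl2, Jun, Junb, Socs3 and Stat3) and 2 fell (Crtc3 and Jund).

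**Figure D4:**
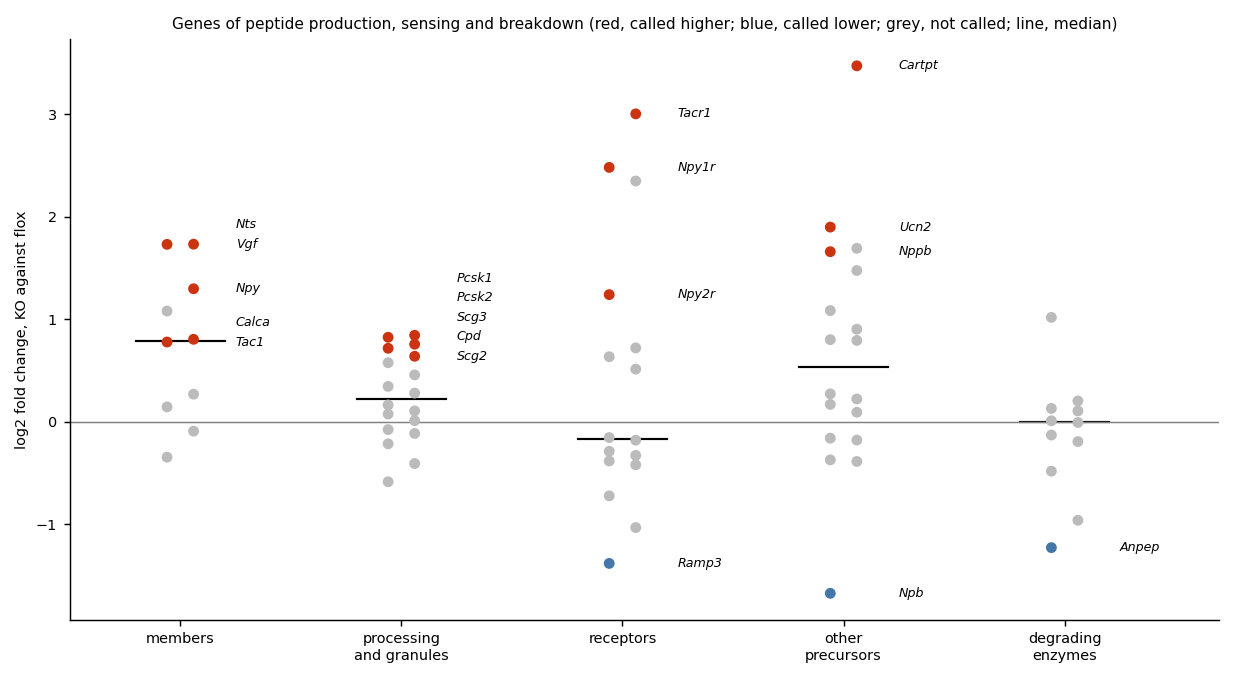
Log2 fold change, knockout against flox, of the precursors and of 4 lists of genes that process, sense or break down peptides or encode other precursors; each dot is a gene, red and blue dots passed edgeR's test, and lines are list medians. Medians lie at 0.79 for the 10 precursors, 0.22 for processing and granule genes, -0.17 for receptors and 0.53 for other precursors.

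Markers of cell types were read beside these results, where 15.5% of all genes tested were called (7.97% higher, 7.51% lower). Sensory neuron markers passed in 2 of 10 cases, both higher (Elavl4 and Isl1), and their summed level was 3624 to 4899 CPM (knockout) against 2586 to 4530 CPM (flox) in batch 1 and 3969 to 4610 against 3308 to 4265 CPM in batch 2. Peptidergic nociceptor markers passed in 3 of 6 cases, all higher (Trpv1, Trpa1 and Gfra3), with sums of 507 to 800.1 against 394 to 504 CPM in batch 1 and 518 to 782 against 327 to 414 CPM in batch 2. Markers of NP3 neurons, the itch-sensing class that expresses Sst, rose in 5 of 5 cases (Nppb, Il31ra, Osmr, Cysltr2 and Htr1f), with sums of 213 to 283 against 86.7 to 96.9 CPM in batch 1 and 113 to 190.3 against 34.5 to 59.3 CPM in batch 2, while Sst itself did not pass. Markers of non-peptidergic nociceptors passed in 2 of 5 cases, both lower (Lpar3 and Gfra2). Neutrophil markers rose in 6 of 6 cases, with sums of 1365 to 5003 against 172 to 609 CPM in batch 1 and 546 to 1003 against 40.6 to 90.4 CPM in batch 2. Schwann cell markers fell in 5 of 6 cases and fibroblast markers in 5 of 6, and no marker of these 7 lists was at 0 in a whole group. With library sizes set by the 10 sensory neuron markers, the median of all genes moved to -0.28, and Tac1 (0.52, edgeR adjusted p = 0.0128), Calca (0.54, 0.0303), Nts (1.45, 0.0134) and Vgf (1.47, 6.64e-05) were still called over both batches. In batch 1 alone that scaling gave Tac1 0.34 (edgeR adjusted p = 0.309), Calca 0.20 (0.535), Nts 0.38 (0.387) and Vgf 1.52 (0.0637), none called. In batch 2 alone it gave Tac1 0.70 (0.0136), Calca 0.88 (0.0124), Nts 2.55 (0.000623) and Vgf 1.41 (0.00217), all called. The part of the other cell types in the results was not tested.

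In monkeys none of the precursors passed the test between DRG of SADBE-treated and vehicle-treated skin. TAC1, SST and CALCB were well detected in all 6 libraries, and VIP was listed at 0 in each, which with a floor of 3 counts allows 0.111 to 0.333 CPM. Of the 10 members 7 were tested among 17988 genes. edgeR's quasi-likelihood test called 0 genes (0%) and 0 members at an adjusted p under 0.05. At an unadjusted p under 0.05 it found 550 genes (3.06%) and 0 members, and DESeq2 called 27 genes and 0 members. The median log2 fold change of the 7 tested members was 0.15, against -0.01 over all genes. No member had groups without overlap, against 4.65% of genes higher and 4.55% lower without overlap. With 3 libraries a group the intervals were wide.

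TAC1 stood at 525, 514 and 561 CPM in SADBE libraries 1 to 3 and at 409, 297 and 738 CPM in vehicle libraries 1 to 3, so SADBE libraries lay close together inside the vehicle range. Its log2 fold change was 0.15 ± 0.50, with a 95% interval of -0.83 to 1.12. That wide interval includes the mouse value, which is of another contrast, knockout against flox. CALCA stood at 81.3, 144 and 122 CPM against 28.8, 74.1 and 152 CPM, a log2 fold change of 0.45 ± 0.61 with an interval of -0.74 to 1.64. CALCB was far more abundant, at 2140, 3370 and 3792 CPM against 2619, 2837 and 6108 CPM, and did not pass (-0.31 ± 0.59).

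The ratio of CALCA to CALCB on TPM was 0.0613, 0.0705 and 0.0527 in SADBE and 0.0176, 0.0430 and 0.0414 in vehicle libraries. It was higher in every SADBE library than in every vehicle library, by 0.96 on the log2 scale of counts (1.94-fold). The exact two-sided permutation test gave p = 0.1, the smallest that 3 against 3 libraries allow, so this design could not reach 0.05. Without vehicle library 1 the difference was 0.55. In every monkey library CALCB exceeded CALCA, the reverse of batch 1 in mice, and the transcript models behind the monkey values are not given in the sources used here.

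**Figure D5:**
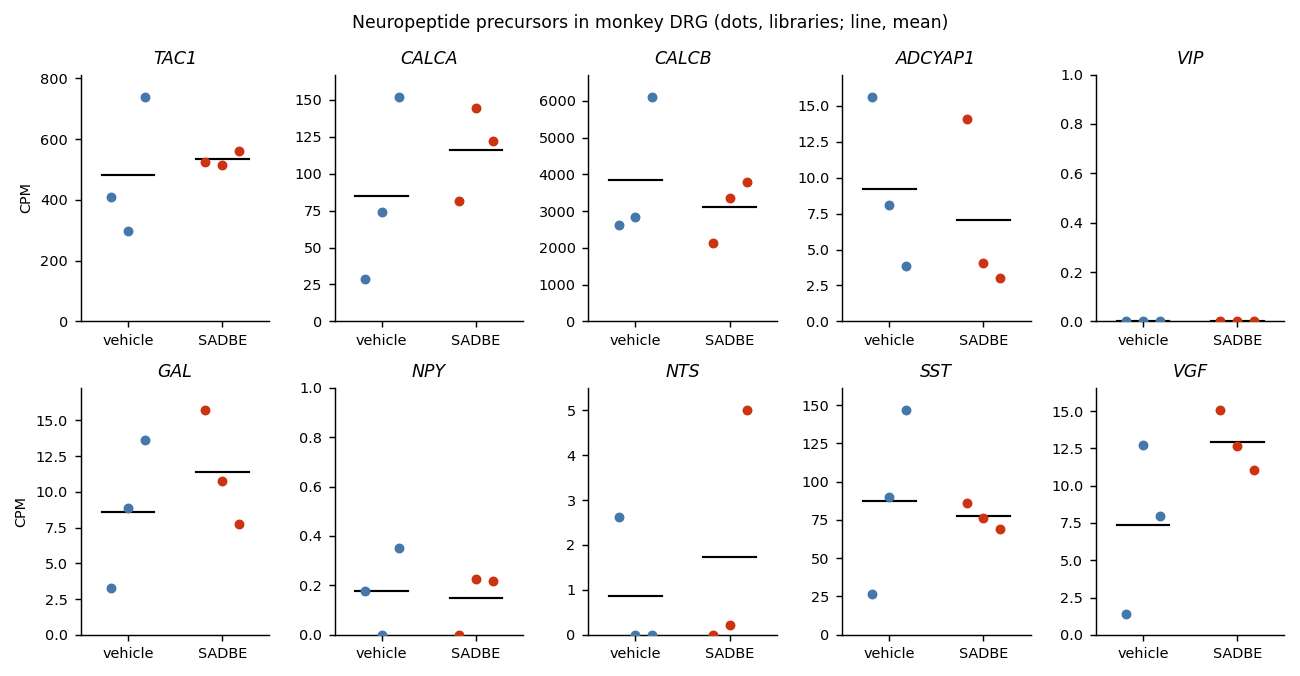
Level of each precursor in the 6 monkey libraries, in CPM (linear axes from 0), by treatment; dots are libraries and lines are group means. The groups overlap for every tested member; TAC1 stands at 514 to 561 in SADBE and 297 to 738 in vehicle libraries, and VIP is at 0 throughout.

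VGF, the most clearly raised member in mice, stood at 15.1, 12.7 and 11.1 CPM in SADBE and 1.41, 12.8 and 7.96 CPM in vehicle libraries, with a log2 fold change of 0.81 ± 0.71 and an interval of -0.59 to 2.21. GAL stood at 15.7, 10.8 and 7.77 against 3.29, 8.83 and 13.6 CPM (0.42 ± 0.60). SST stood at 86.2, 76.5 and 69.4 against 26.4, 89.8 and 147 CPM (-0.18 ± 0.59), and ADCYAP1 at 14.04, 4.04 and 2.99 against 15.6, 8.12 and 3.85 CPM (-0.39 ± 0.75). Each adjusted p of edgeR was 0.999. NPY and NTS did not pass the filter on low counts, with 0, 2 and 4 against 6, 0 and 4 counts for NPY and 0, 2 and 92 against 89, 0 and 0 counts for NTS; 1 library of each group carried nearly all NTS counts.

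Vehicle library 1 had the lowest value of CALCA, GAL, SST and VGF among the 6 monkey libraries. The other tested members did not follow: ADCYAP1 was highest there (15.6 CPM), and TAC1 (409 CPM) and CALCB (2619 CPM) were not lowest. Vehicle library 1 also had the lowest summed level of the 10 sensory neuron markers, 1576 CPM against 3058 to 4056 CPM in the others. Its sums of neutrophil markers (1235 CPM, 4 of 6 markers in the table) and of adipocyte markers (2066 CPM) were the highest. Without this library the log2 fold changes of CALCA, GAL and VGF were 0.03, 0.02 and 0.32, and that of SST was -0.62. By edgeR 0 members were called without it, and 0 without SADBE library 2 or 3, which resembled each other.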

How the data were processed

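DRG RNA of 14 mouse and 6 monkey libraries was sequenced in bulk. Estimated counts and TPM per gene were deposited by the authors, who used kallisto and name the build GRCm38, per the submitters' processing notes; its version, the strandedness and the monkey transcriptome are not given in the sources used here. Reads that fit several transcripts are split among them by that tool. Mouse TPM columns do not sum to the same total, so TPM was used mainly within libraries and groups. It served to order genes within a group, by its mean, and for the Calca to Calcb ratio within a library. A minimum mean TPM limited the genes named as most alike. Only the limma-trend alternatives compared TPM between libraries. A row naming no gene (0.0785% to 0.186% of counts) was left out.

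Counts were rounded and tested with edgeR 4.0.16 (R 4.3.3) quasi-likelihood tests after filterByExpr (minimum count 10, total 15) and TMM scaling, with batch as a term in mice and Benjamini-Hochberg adjustment over all genes tested; under 0.05 was called. Standard errors come from the F statistic, and 95% intervals are 1.96 of them on either side, a normal quantile. With few libraries these intervals are narrower than the tests imply. In batch 1 that of Adcyap1 ran from 0.02 to 0.73 at an unadjusted edgeR p of 0.0645. Each batch and the interaction were tested alike. Alternatives were RLE scaling, scaling to 10 sensory neuron markers, no filter, DESeq2 1.42.0, limma 3.58.1 (voom, and trend on log2(TPM + 1) or log2(TPM + 0.1)), no batch term, a replicate block and each library left out. Scripts were tested on simulated data. No 2 libraries of the same group and batch were copies (chi-square per gene at least 21.0 in mice). Pairs across groups or batches were not compared in this way. Shared 31-base words were counted with Python 3.11.15.

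Named were all members, called genes of the lists (any of which the rule allows), 4 listed genes that did not pass (Cpe, Pam, Calcrl and Ramp1, outside the rule), and the 3 genes most like each called member, leaving out Gm, Rik, LOC and pseudogene symbols. Members and lists were chosen with earlier results of these data known.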

Additional observations from a re-analysis of the deposited data

Results flagged for a closer look

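Vgf in knockout library 2, at 128 CPM, lay far below the other 3 knockout libraries of batch 1, which stood at 206 to 218 CPM. It was the 1 outlying value in 20 groups of 4 libraries tested, and chance marks about 1 in 20. The same library held the raised sympathetic markers.

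The genotype difference of Nts differed between the batches, by 1.82 ± 0.36 on the log2 scale (edgeR adjusted p = 0.0264), with 0.80 in batch 1 and 2.66 in batch 2. The genotypes did not overlap in either.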

How the results depend on the processing

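In mice 5 members were called, 4 to 5 when 1 library was left out and 1 (Nts) with no batch term; the counts of all genes called were 2423, 1587 to 3108 and 564. With the replicate block 4 members (Npy lost, adjusted p = 0.0849) and 1121 genes were called. With group means removed (in mice, those of each genotype and batch), same-numbered libraries had correlations of -0.22 to 0.27 in mice and -0.39 to 0.30 in monkeys. So few libraries cannot show whether the numbers pair them, and the labels do not say. Without knockout libraries 6 and 7 together Npy was lost (0.174). Scaling to sensory neuron markers moved the share of calls that were higher from 51.5% to 14.3% and turned Gal to -0.16. The interaction gave 161 genes and 1 member: 74 genes with that scaling, 688 genes and 2 members in DESeq2, 90 genes in limma-voom, and 50 to 445 genes and 0 to 1 members with 1 library left out. Batch 1 gave 273 genes and 1 member: 76 and 0 with that scaling, 1151 and 5 in DESeq2, and 47 to 882 and 1 to 2 with 1 library left out. Batch 2 gave 2085 genes and 6 members: 3184 genes in DESeq2, and 1036 to 1848 genes and 4 to 6 members with 1 library left out. In monkeys, DESeq2 called 27 genes. None of the values that changed sign had passed the test. With marker scaling these were the Adcyap1 interaction (0.017), Adcyap1 in batch 1 (-0.00137) and TAC1 (-0.21). With 1 library left out they were the interactions of Tac1 (-0.12 without flox library 1, -0.02 without flox library 6; range to 0.20) and Sst (-0.03 and -0.19 without knockout library 2 or 7; range to 0.98), Sst in batch 2 (0.14 without knockout library 5; range from -0.67), TAC1 (-0.11 without vehicle library 2; range to 0.57), CALCB (0.16 without vehicle library 3; range from -0.54), ADCYAP1 (0.23 without vehicle library 1; range from -1.40) and SST (0.40 without vehicle library 3; range from -0.62). SST was also 0.12 in limma-voom, 0.17 and 0.18 in limma-trend and 0.10 with the replicate block. Where no number above shows it, the cause was not tested. Low counts limit what can be said of Vip in mice (at most 33) and of NPY in monkeys (at most 6).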
